A study of Homo sapiens with 2 samples.

Results

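The 10 genes IGFBP3, DKK1, TGFBR2, LOX, THBS1, CYR61 (CCN1), CTGF (CCN2), FOXO1, PHLDA1 and SPRY1, all known targets of repression by EWSR1-FLI1, were measured in single cells of a pair of Ewing sarcoma lines, CHLA9 and TC71. The members were taken from a list of known targets and not by their values here, though earlier results of these data were known. All 10 of them were among the 33538 genes of the matrices. Each line was profiled as 1 droplet library with a kit that reads the 3′ ends of transcripts. The CHLA9 cells came from a culture in Iscove's medium, to which 20% heat-inactivated fetal bovine serum and insulin-transferrin-selenite had been added. The TC71 cells came from a culture in RPMI-1640 with 10% fetal bovine serum. CHLA9 was sequenced on a HiSeq and again on a NovaSeq, and TC71 on the HiSeq alone, so that line, medium and sequencing cannot be told apart. No cells with the fusion depleted were analysed here, so the values are levels in fusion-bearing cells and not measures of repression.

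EWSR1-FLI1 joins the amino-terminal part of EWSR1 to the DNA-binding ETS domain of FLI1. It is known to activate genes at GGAA repeats and to hold a second group of genes down, in part through corepressor complexes. Among the genes it holds down are secreted inhibitors of growth factor signalling, matrix proteins and TGF-beta receptors, which are abundant in mesenchymal cells and rise when the fusion is removed.

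Cells were kept when they had at least 5000 unique molecular identifiers (UMIs), at least 2000 genes and at most 15% of UMIs from mitochondrial genes. This left 4524 of 5077 CHLA9 barcodes with a median of 34656 UMIs, and 1729 of 8468 TC71 barcodes with a median of 33370. Levels are summed UMIs per 1000000 UMIs of the kept cells (CPM), with exact 95% Poisson intervals. These intervals, and all others given here, cover counting error only. With 1 library per line there was no test between the lines. All 8 Ewing sarcoma markers checked, among them CD99, NKX2-2 and STEAP1, were at 1 CPM or more in both lines. The libraries shared 16 barcodes, of which 3 were kept in both. In 2 kept CHLA9 cells, over 30% of the UMIs of line-specific genes belonged to genes of TC71, the higher share being 72.6%, whereas no other kept CHLA9 cell exceeded 18.3%. Both held LOX and FOXO1 UMIs, 1 of them also PHLDA1 and the other CYR61 and CTGF. Without these cells LOX was at 5.90, FOXO1 at 9.46 and PHLDA1 at 1.69 CPM in CHLA9, beside 5.92, 9.47 and 1.69 CPM with them. On GRCh38, with positions from GENCODE 44, the members are protein-coding genes at chr7:45912245-45921874 (IGFBP3), chr10:52314281-52318042 (DKK1), chr3:30606601-30694142 (TGFBR2), chr5:122063195-122078413 (LOX), chr15:39581079-39599466 (THBS1), chr1:85580761-85584589 (CYR61), chr6:131948176-131951372 (CTGF), chr13:40555667-40666641 (FOXO1), chr12:76025447-76031776 (PHLDA1) and chr4:123396795-123403760 (SPRY1).

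All 10 members were under 10 CPM in both lines, and 5 were under 1 CPM in each. Such levels were common: of all 33538 genes, 13552 were at 1 CPM or more in either line. Of these, 4294 stayed under 10 CPM in both lines. The summed level of the 10 members was 21.8 CPM in CHLA9 (21.1 to 22.5, 3815 UMIs) and 21.1 CPM in TC71 (20.0 to 22.4, 1234 UMIs). On the log2 scale TC71 over CHLA9 this was a difference of -0.04 (-0.14 to 0.05), so the sums were not separated beyond counting error. FOXO1 gave the most UMIs of this sum in both lines. The 9 members without it summed to 12.3 CPM and 13.2 CPM, a log2 ratio of 0.10 (-0.02 to 0.22). For comparison, 20 genes known to be activated by the fusion summed to 6748 CPM and 4427 CPM. The median gene was at 101 CPM and 74.7 CPM among these activated genes, and at 1.13 CPM and 1.40 CPM among the members. EWSR1 (153 against 101 CPM) and FLI1 (38.2 against 23.0 CPM) were both higher in CHLA9. Reads from the 3′ end do not separate FLI1 from the fusion transcript that ends in it. That transcript lacks the 3′ end of EWSR1, so the EWSR1 level is not a measure of the fusion.

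The sums were close, but single members were not. SPRY1, CTGF and TGFBR2 were at least 2-fold higher in TC71, and IGFBP3 and LOX were at least 2-fold higher in CHLA9. FOXO1, PHLDA1 and CYR61 were not past that limit in either direction. DKK1 had no UMI in either line and THBS1 none in TC71, so these members could not be placed against it and were not counted. The 5 members at 1 CPM or more were at that level in both lines, and 1 of them was past 2-fold in each direction, TGFBR2 and LOX. Across the 13552 genes at 1 CPM or more in either line, 13.9% were at least 2-fold higher in TC71 and 19.8% in CHLA9. Among the 4294 genes between 1 and 10 CPM in their higher line the shares were 24.8% and 27.4%, so that the members' counts lay near the background. Past 4-fold, none of these 5 members differed, where 7.93% of genes were higher in TC71 and 6.94% in CHLA9. When the 23998 genes with any UMI were taken instead, 26.6% were past 2-fold higher in TC71 and 18.9% in CHLA9, beside 3 and 2 of the 10 members. DKK1, with no UMI, is not among these genes. In these shares a line at 0 UMIs was set to 3 counts. Genes with a few UMIs in CHLA9 and 0 in TC71 thus counted as higher in TC71, so the 26.6% overstates that share. The median log2 ratio was 0.51 over these 5 members and -0.20 over the 13552 genes.

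**Figure D1:**
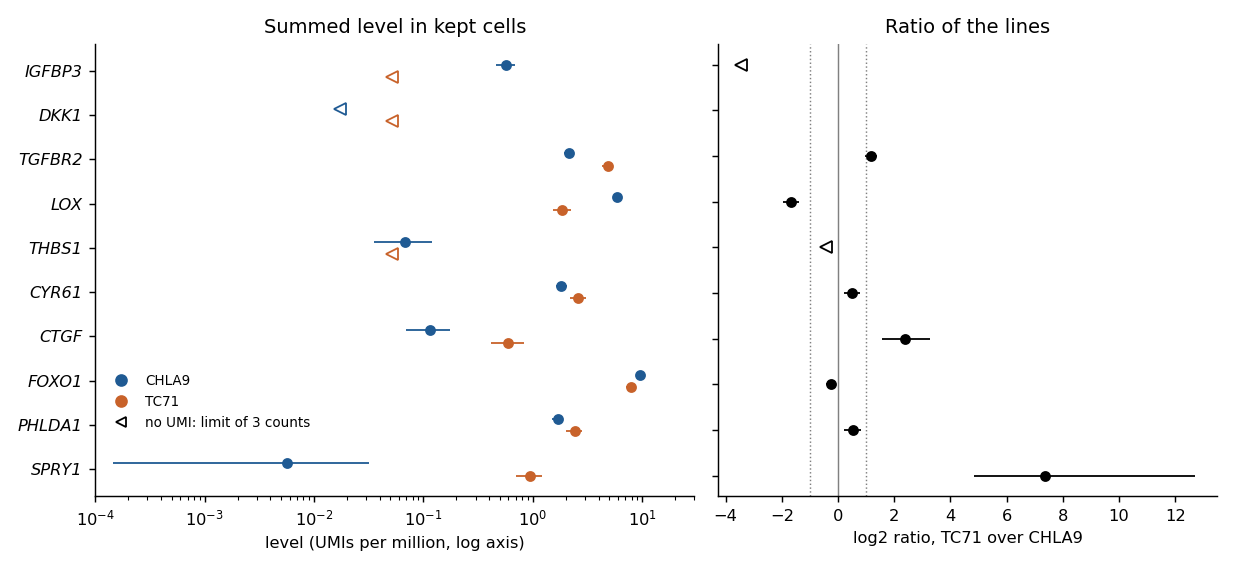
Levels of the 10 members in CPM on a log axis (left; bars are exact 95% Poisson intervals) and their log2 ratio TC71 over CHLA9 (right; bars are exact 95% binomial intervals, dotted lines mark 2-fold). Open triangles stand for no UMI, drawn at the limit that 3 counts allow, or for a ratio that uses this limit. FOXO1 lies at 9.47 and 7.90 CPM, near the same level in both lines, and SPRY1 and CTGF lie to the right of the 2-fold line while IGFBP3 and LOX lie to the left.

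The secreted inhibitors gave no UMI in TC71, and 1 of them, IGFBP3, gave UMIs in CHLA9. IGFBP3, which binds insulin-like growth factors and restrains their signalling, gave 99 UMIs in CHLA9, a level of 0.566 CPM (0.460 to 0.689). In TC71 it gave 0 UMIs, where 3 counts would be 0.0514 CPM, so it was at least 11-fold higher in CHLA9. This bound is a log2 ratio of -3.46, and with at most 10% mitochondrial UMIs it was -2.72. The CHLA9 transcripts were gathered in few cells. IGFBP3 was seen in 68 of 4524 cells, and 16 of these held 2 or more UMIs and together 47 of the 99, with up to 8 in a single cell. Among 685 other genes with 0.8 to 1.25 times its total, the median number of cells with 2 or more UMIs was 3. Neither of the mixed cells held an IGFBP3 UMI. DKK1, a secreted antagonist of Wnt signalling that binds the LRP coreceptors, gave 0 UMIs in both lines. Its limits of 3 counts are 0.0171 CPM in CHLA9 and 0.0514 CPM in TC71.

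TGFBR2 encodes the type II receptor that binds TGF-beta and starts signalling through the SMAD proteins. It was at 2.14 CPM in CHLA9 (1.93 to 2.37, 375 UMIs) and at 4.83 CPM in TC71 (4.28 to 5.43, 282 UMIs), 2.25-fold higher in TC71 (1.93 to 2.64). The intervals of the lines did not overlap. With at most 10% mitochondrial UMIs the log2 ratio was 0.96 instead of 1.17, just short of 2-fold, and 2 members instead of 3 were past that limit in TC71. Within TC71, TGFBR2 was at 3.67 CPM in the tertile of cells with the lowest mitochondrial percent and 6.20 CPM in the highest, a log2 ratio of 0.76 (0.32 to 1.2), and the part that mitochondrial RNA has in the TGFBR2 ratio was not tested. In the rest of the TGF-beta pathway, 1 of 16 genes at 1 CPM or more was past 2-fold higher in TC71 and 3 in CHLA9. The coreceptor TGFBR3 was at 2.35 CPM in TC71 against 0.457 in CHLA9. The ligands TGFB1 (163 against 72.7 CPM) and TGFB3 (7.52 against 2.72 CPM) were higher in CHLA9, and the mediators SMAD2 (74.6 and 58.2 CPM) and SMAD4 (54.4 and 40.0 CPM) were within 2-fold.

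Among matrix genes, LOX showed the reverse order. LOX, the secreted oxidase that crosslinks collagen and elastin, was at 5.92 CPM in CHLA9 (5.56 to 6.29, 1035 UMIs) and 1.85 CPM in TC71 (1.52 to 2.23, 108 UMIs). It was 3.20-fold higher in CHLA9 (2.62 to 3.93). Fibroblast markers were higher in the same line: 8 of 9 at 1 CPM or more were at least 2-fold higher in CHLA9 and none in TC71, their sum was 466 CPM against 113 CPM, and all 10 had UMIs in both lines. COL1A2, a chain of type I collagen, was at 203 CPM in CHLA9 with 2 UMIs in TC71, whereas PDGFRA had 9 UMIs and 2 UMIs. The part of these markers in the LOX values was not tested. Other matricellular and crosslinking genes were split, with 4 of 8 past 2-fold higher in TC71 and 2 in CHLA9. SPARC (56.2 against 4.11 CPM), LOXL2 (1.68 against 0.314 CPM) and CD47 (41.8 against 16.5 CPM) were higher in TC71. FN1, fibronectin, was higher in CHLA9, at 39.7 against 5.50 CPM.

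THBS1, a matricellular protein that activates latent TGF-beta, gave 12 UMIs in 10 CHLA9 cells, 0.0686 CPM (0.0354 to 0.120), and 0 UMIs in TC71. Its CHLA9 level was 1.33-fold the limit of 3 counts in TC71, 0.0514 CPM. The CHLA9 interval reached below that limit, so no direction between the lines was given by counting. With at most 10% mitochondrial UMIs the ratio to the limit was lost as well (log2 ratio 0.05). The TC71 barcodes that were not kept held 3 THBS1 UMIs, 2 of them in barcodes under 5000 UMIs (0.225 CPM). CYR61 and CTGF, the CCN proteins that serve as textbook readouts of the YAP and TEAD factors, were both higher in TC71 but at unlike levels. CYR61 was at 1.83 CPM in CHLA9 (1.63 to 2.04, 320 UMIs) and 2.60 CPM in TC71 (2.21 to 3.05, 152 UMIs), a 1.42-fold difference (1.17 to 1.73). CTGF gave 20 UMIs in CHLA9, 0.114 CPM (0.0698 to 0.177), and 35 UMIs in TC71, 0.600 CPM (0.418 to 0.834), a 5.25-fold difference (2.95 to 9.59). One of the mixed CHLA9 cells alone held 8 CYR61 and 2 CTGF UMIs. Without both mixed cells CYR61 stood at 1.78 CPM in CHLA9 and CTGF at 0.103 CPM.

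Among the members with a promoter entry, CTGF had the most matches to the TEAD motif before its start site. RefSeq promoters on GRCh38 were found for 9 members (all but CYR61), with 13 start sites, and the 250 bases before each start were searched on both strands. The letters GGAATG, which TEAD factors bind and which contain the ETS core GGAA, were found in 3 members, CTGF, DKK1 and THBS1. Of 35116 promoters of this length 11.9% held GGAATG, and 0.0826% held it 3 or more times as CTGF did. The first bases of its 3 matches lay at -169, -104 and -95 from the start site, that of DKK1 at -50 and that of THBS1 at -46. GGAA alone was found before all 13 start sites, as in 92.7% of all promoters, so it did not separate the members. The sequences of the 3 members are shown because they are the ones that hold GGAATG, printed in capitals, 5′ to 3′ along the gene's own strand. They lie at chr6:131951373-131951622 on the minus strand for CTGF, chr10:52314031-52314280 on the plus strand for DKK1 and chr15:39580829-39581078 on the plus strand for THBS1.
CTGF: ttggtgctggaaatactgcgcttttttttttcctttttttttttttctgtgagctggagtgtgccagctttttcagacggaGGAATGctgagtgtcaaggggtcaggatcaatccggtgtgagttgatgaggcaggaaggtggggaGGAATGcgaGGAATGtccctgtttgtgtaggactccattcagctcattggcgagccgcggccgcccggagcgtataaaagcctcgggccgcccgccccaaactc
DKK1: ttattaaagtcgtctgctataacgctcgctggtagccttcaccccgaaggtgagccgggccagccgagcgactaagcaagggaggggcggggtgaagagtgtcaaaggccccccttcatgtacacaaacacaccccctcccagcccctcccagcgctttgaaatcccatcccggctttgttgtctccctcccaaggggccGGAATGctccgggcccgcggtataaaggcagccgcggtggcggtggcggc
THBS1: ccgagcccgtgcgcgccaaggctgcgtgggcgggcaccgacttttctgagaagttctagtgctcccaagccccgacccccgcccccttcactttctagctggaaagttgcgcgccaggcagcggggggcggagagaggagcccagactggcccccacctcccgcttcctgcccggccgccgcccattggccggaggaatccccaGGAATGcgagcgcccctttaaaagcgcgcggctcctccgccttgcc
CTGF, DKK1 and THBS1 gave 20, 0 and 12 UMIs in CHLA9 and 35, 0 and 0 UMIs in TC71. A match of letters is a description of the sequence and not a site of binding.

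The other targets of YAP and TEAD were split between the lines, with 5 of 13 at 1 CPM or more past 2-fold higher in TC71 and 3 in CHLA9. DOCK5 was at 5.89 CPM in TC71 and 0.189 in CHLA9. AXL (5.22 against 0.257 CPM) and PTPN14 (90.6 against 7.51 CPM) were higher in CHLA9. Of 13 factors of the pathway, VGLL3 was past 2-fold higher in TC71 (12.8 against 1.29 CPM), and TEAD2 (100.3 against 20.9 CPM), TEAD4 (32.3 against 14.2 CPM) and VGLL4 (80.4 against 37.4 CPM) were past it in CHLA9.

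Of the intracellular members, FOXO1 gave the most UMIs in both lines, on counts of 3′ ends that are not scaled to transcript length. FOXO1, a forkhead factor that AKT keeps out of the nucleus, was at 9.47 CPM in CHLA9 (9.02 to 9.94, 1657 UMIs) and 7.90 CPM in TC71 (7.20 to 8.66, 461 UMIs). The lines differed by 1.2-fold (1.08 to 1.33). It was detected in 1240 CHLA9 cells and 370 TC71 cells. In the rest of the FOXO family and its targets, 1 of 10 genes was past 2-fold higher in TC71, SESN3 (13.9 against 0.0972 CPM), and 1 in CHLA9, CCNG2 (13.9 against 4.73 CPM). FOXO3 was at 38.7 CPM in CHLA9 and 20.8 in TC71. PHLDA1, a protein with a pleckstrin-like domain that is induced by growth factors, was at 1.69 CPM in CHLA9 (1.5 to 1.90, 296 UMIs) and 2.42 CPM in TC71 (2.03 to 2.85, 141 UMIs), a 1.43-fold difference (1.16 to 1.75).

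SPRY1, a feedback inhibitor of receptor tyrosine kinase signalling to ERK, gave almost no UMIs in one line. It had 1 UMI in CHLA9, 0.00572 CPM, and 55 UMIs in 51 TC71 cells, 0.943 CPM (0.710 to 1.23). Their ratio of 165 had an interval of 28.4 to 6631, since it rests on that 1 UMI. Its paralog SPRY4 was low in the same line, with 3 UMIs in CHLA9 and 87 in TC71. Of 9 genes of ERK feedback other than the members, 2 were past 2-fold higher in TC71 and 2 in CHLA9. PHLDA2, a relative of PHLDA1, was at 57.7 CPM in TC71 against 1.40 in CHLA9, while PHLDA3 (129 against 18.6 CPM) and the ERK-induced factor ETV5 (67.6 against 29.0 CPM) were higher in CHLA9.

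Other genes of the same pathways as the members with few or no UMIs ranged from near 0 to 406 CPM. Of 10 genes of the insulin-like growth factor axis other than IGFBP3, none was past 2-fold higher in TC71 and 3 were in CHLA9, namely IGFBP4 (83.2 against 4.56 CPM), IGFBP2 (406 against 141 CPM) and INSR (27 against 10.4 CPM). Of 8 Wnt antagonists and receptors other than DKK1, 2 were past 2-fold in each direction. The Wnt antagonists SFRP2 (65.5 CPM against 8 UMIs) and FRZB (67.7 CPM against 11 UMIs) were present in CHLA9 and near absent from TC71, and the coreceptor LRP6 was at 80.7 and 72.2 CPM. The other 5 of the 13 listed were under 1 CPM in both lines, among them DKK3 with 7 UMIs and 1 UMI and DKK4 with 1 and 0, relatives of DKK1 chosen after their values were seen. Among 9 other genes known to rise when the fusion is lost, 3 were past 2-fold higher in TC71, ANXA1 (387 against 18.9 CPM), CDKN1A (7.20 against 0.263 CPM) and IGFBP7 (1.65 against 0.0572 CPM), and 2 were in CHLA9. Of the 20 genes activated by the fusion, 4 were past 2-fold in each direction. CCK, a neuropeptide, was at 1671 CPM in CHLA9 with 49 UMIs in TC71. CAV1, caveolin, was higher in TC71, at 1443 CPM against 558 CPM in CHLA9.

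**Figure D2:**
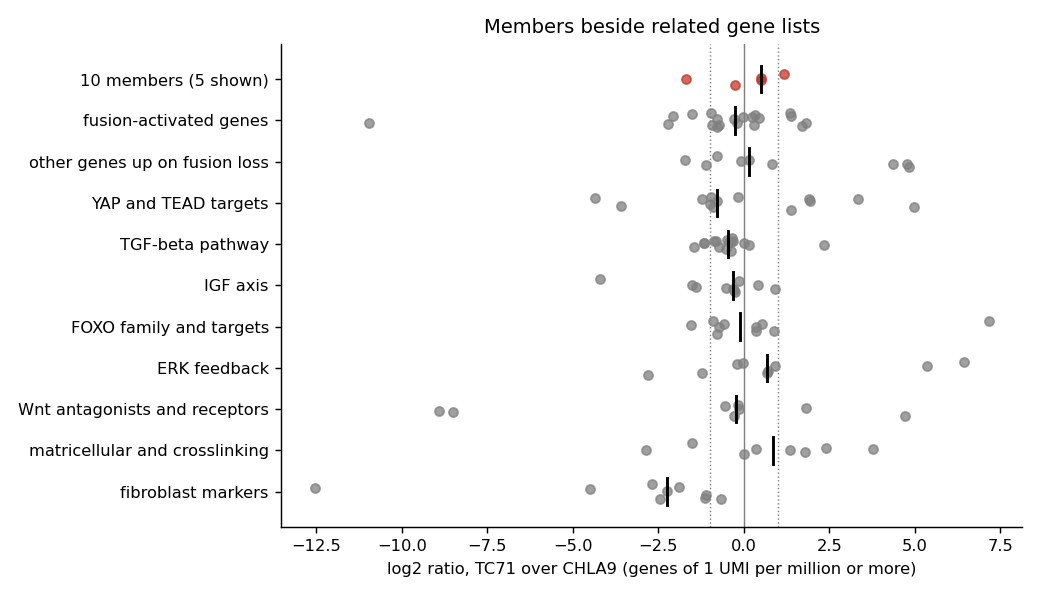
Log2 ratio TC71 over CHLA9 of each gene at 1 CPM or more in either line, by list; black bars are medians and dotted lines mark 2-fold. The 5 members shown (red) span LOX at -1.68 to TGFBR2 at 1.17 with a median of 0.51, and fibroblast markers lie to the left with a median of -2.25.

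To compare detection at equal depth, each cell was thinned at random to 10000 UMIs, which left out 14 CHLA9 and 59 TC71 cells with fewer. A UMI of any of the 10 members was then present in 18.1% of 4510 CHLA9 cells (exact Clopper-Pearson interval 17.0 to 19.2) and in 20.0% of 1670 TC71 cells (18.1 to 22.0). At full depth the members were seen in up to 27.4% of CHLA9 cells and 21.4% of TC71 cells, in both cases for FOXO1. After thinning, FOXO1 was in 8.29% of CHLA9 cells (7.5 to 9.14) and 7.37% of TC71 cells (6.16 to 8.72). LOX was in 5.63% (4.98 to 6.35) and 2.57% (1.87 to 3.45), and TGFBR2 in 1.93% (1.55 to 2.37) and 4.55% (3.60 to 5.66). As with the levels, LOX was higher in CHLA9 and TGFBR2 in TC71, whereas the intervals of FOXO1 overlapped although those of its levels did not. CYR61 was in 1.66% and 2.93%, PHLDA1 in 1.62% and 2.34%, and CTGF in 0.0665% and 0.539% of the thinned cells of CHLA9 and TC71. IGFBP3 was in 0.510% of CHLA9 cells (0.324 to 0.764) and 0 of 1670 TC71 cells, which by the limit of 3 counts allows a share of up to 0.180%. SPRY1 was in 0 of 4510 CHLA9 cells, which by the same limit allows up to 0.0665%, and in 1.26% of TC71 cells (0.780 to 1.92). DKK1 and THBS1 were in no thinned cell of either line.

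Free RNA from lysed cells can give UMIs in cells that do not express a gene. With 1 line per library such RNA comes from the same line, so genes of other lineages do not measure it. In the same thinned cells, 25 genes were counted that these lines were taken to lack, from endothelial, leukocyte, epithelial, erythroid and liver cells. In CHLA9, 10 of them were in no cell, their median share was 0.0222%, and the highest were CLDN5 at 0.820% and KRT19 at 0.798%. TGFBR2, LOX, FOXO1, PHLDA1 and CYR61 exceeded all 25 there, whereas IGFBP3 and CTGF did not. In TC71, 19 were in no cell and the median was 0, but CLDN5 was in 8.14% of cells and APOA1 in 1.68%. No member exceeded CLDN5 in TC71, and FOXO1, TGFBR2, CYR61, LOX and PHLDA1, 5 members, exceeded the other lineage genes. SPRY1 and CTGF in TC71 and IGFBP3 and CTGF in CHLA9 thus lay within the range of these lineage genes. CLDN5 was at 8.52 CPM in TC71 and 0.806 CPM in CHLA9, and KRT19 gave 211 UMIs in CHLA9 and 0 in TC71. Whether the lines express these 2 genes was not tested, so the range cannot tell background from expression. Neither is read from the members' shares of cells.

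**Figure D3:**
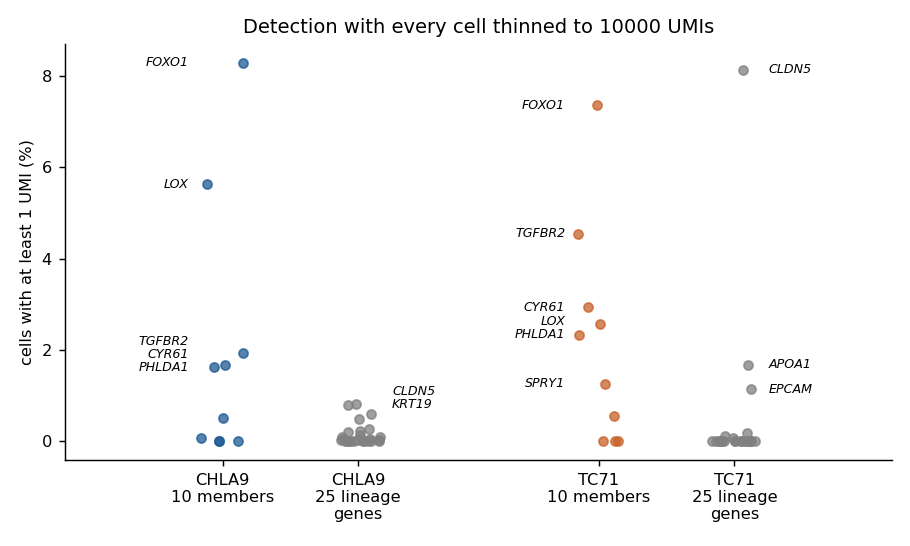
Share of cells with at least 1 UMI after thinning each cell to 10000 UMIs, for the 10 members (coloured) and 25 genes of other lineages (grey) in each line; points are genes, spread sideways for visibility. FOXO1 reaches 8.29% in CHLA9 and 7.37% in TC71, and most lineage genes lie at or near 0 apart from CLDN5 at 8.14% in TC71.

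Co-variation of the members across cells was close to none. In CHLA9 only LOX and FOXO1 were detected in at least 5% of the thinned cells, and Spearman's rho between them was 0.0131 over 4510 cells, where the median over all pairs of genes detected as often was 0.000517. In TC71 FOXO1 alone reached 5%, so no pair could be formed. With a limit of 1%, chosen after seeing the data, the 10 pairs of 5 members in CHLA9 had a median rho of 0.0103 (from -0.00565 to 0.0447), and the 15 pairs of 6 members in TC71 a median of -0.00265 (from -0.0355 to 0.0421). The cells of each line share 1 library, and counts this sparse hold rho near 0, so such weak values are no finding. In CHLA9, 66 cells had UMIs of 2 or more members where 58.9 would follow from independent detection, a ratio of 1.12 (Poisson interval 0.867 to 1.43). In TC71 there were 25 such cells where 28.1 would follow, a ratio of 0.890 (0.576 to 1.31). Neither number left the counting interval around independence.

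LOX and FOXO1 in CHLA9, and FOXO1 in TC71, were detected often enough to rank all other genes by rho. Out of 9896 genes ranked over 4510 cells, the 3 closest to LOX were CDCA3 (rho 0.0719), ASPM (0.0698) and TPX2 (0.0697), which take part in mitosis. Those closest to FOXO1 were the nuclear RNA MALAT1 (0.0834), the helicase PIF1 (0.0830) and the topoisomerase TOP2A (0.0713). In TC71 the 2 closest to FOXO1 over 1670 cells were MMD (0.108) and SDF2 (0.0962). FLI1 itself was not close to any of them, with a rho of -0.000421 to LOX and -0.0134 to FOXO1 in CHLA9 and -0.0207 to FOXO1 in TC71.

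The levels of the members were then compared between cells called in G1, S and G2M from cell cycle genes. The sum of the 10 members was higher in G2M than in G1 in both lines: in CHLA9 it was 17.7 CPM in G1, 20.7 in S and 24.5 in G2M, and in TC71 16.9, 20.3 and 23.2 CPM. On the log2 scale G1 was below G2M by -0.47 in CHLA9 (-0.61 to -0.33) and by -0.46 in TC71 (-0.77 to -0.16), both beyond counting error. Cells in G2M were also deeper, with a median of 40896 UMIs against 29196 for G1 in CHLA9 and 37014 against 29047.5 in TC71. The part of depth in these differences was not tested, but with each cell thinned to 10000 UMIs the values were -0.79 and -0.23.

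In CHLA9 the members parted into a group that was highest in G2M and a group that was not. FOXO1 was at 6.66 CPM in G1, 9.31 in S and 10.8 in G2M, and PHLDA1 at 1.34, 1.46 and 2.04 CPM. LOX was at 5.28 CPM in G1, 4.67 in S and 7.24 in G2M, and TGFBR2 at 1.88, 1.62 and 2.70 CPM. For each of these 4 genes the log2 ratio of G1 to G2M lay below 0 beyond counting error, from -0.69 (-0.92 to -0.47) for FOXO1 to -0.45 (-0.71 to -0.20) for LOX. CYR61 had the opposite order, at 1.94 CPM in G1, 2.46 in S and 1.25 in G2M, a log2 ratio of 0.64 for G1 over G2M (0.15 to 1.11) and 0.98 for S over G2M (0.61 to 1.36). IGFBP3 was highest in S, at 0.925 CPM against 0.438 in G1 and 0.311 in G2M, and S cells made up 55.9% of the 68 cells with an IGFBP3 UMI, 75% of the 16 with 2 or more and 38.5% of all kept cells. Past a limit of 1.5-fold between G1 and G2M, 2 of the 5 members at 1 CPM or more were lower in G1 (FOXO1 and PHLDA1) and 1 was higher (CYR61), where 9.12% and 9.77% of the 3827 CHLA9 genes between 1 and 10 CPM were. CYR61 was not past 1.5-fold on thinned cells (0.46) or without the mixed cells (0.44), and on thinned cells TGFBR2 (-1.03) and LOX (-0.86) were past it as well. Calls of phase are made per cell and can take up free RNA, and this was not tested.

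In TC71 the G1 cells were few, 226 against 834 in S and 669 in G2M, and intervals were wide. TGFBR2 was at 2.35 CPM in G1 (1.31 to 3.87), 4.75 in S and 5.58 in G2M (4.68 to 6.59), a log2 ratio of -1.25 for G1 over G2M (-2.12 to -0.48). LOX did not vary with phase in TC71 beyond counting error, at 1.88, 1.83 and 1.87 CPM, and CYR61 was at 1.57, 2.70 and 2.77 CPM. TGFBR2 and CYR61 were past 1.5-fold lower in G1, 2 of the 5 members at 1 CPM or more, and none was higher, where 19.2% and 5.38% of 4459 TC71 genes between 1 and 10 CPM were. The interval of CYR61 (-1.95 to 0.14) included 0, and with phases scored from all genes neither was past 1.5-fold, at -0.57 for TGFBR2 and -0.31 for CYR61.

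**Figure D4:**
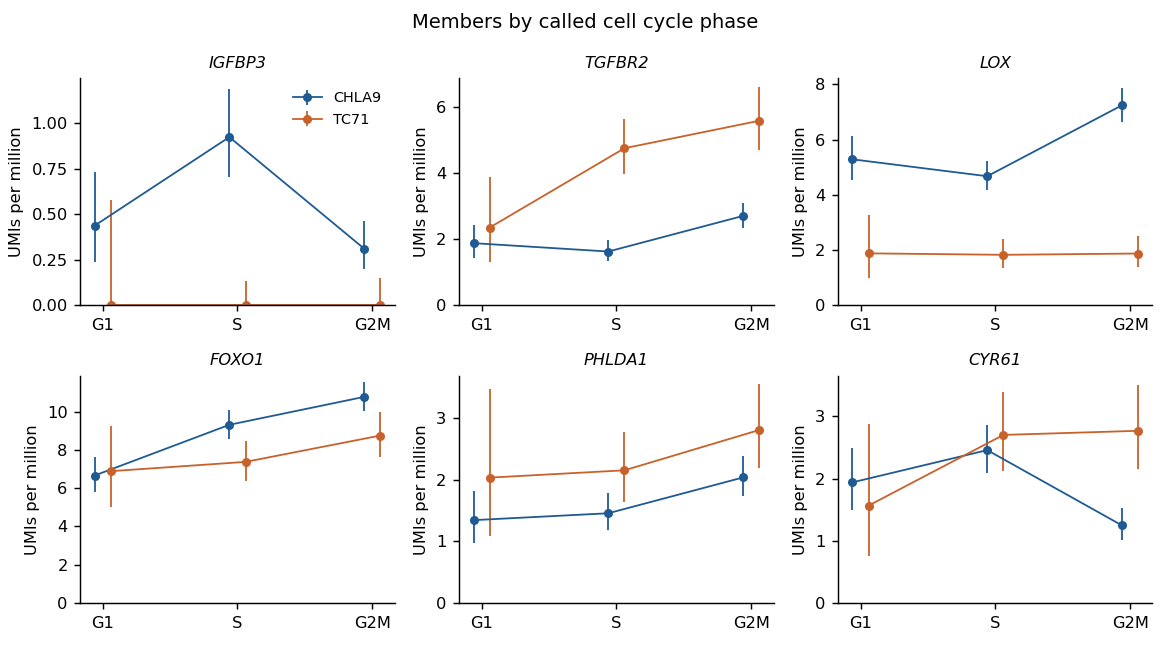
Level in CPM of 6 members in cells called G1, S and G2M, for CHLA9 (blue) and TC71 (orange), with exact 95% Poisson intervals. In CHLA9, FOXO1 lies at 6.66 in G1 and 10.8 in G2M and LOX at 5.28 and 7.24, CYR61 has the opposite order at 1.94 and 1.25, and IGFBP3 is highest in S at 0.925.

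The cells were also parted by whether they held a UMI of FLI1 after thinning, as 1442 CHLA9 cells did and 3068 did not. The sum of the members was 20.3 CPM in cells with a FLI1 UMI and 21.2 CPM in cells without, a log2 ratio of -0.06 (-0.26 to 0.14). In TC71 the log2 ratio was -0.02 (-0.40 to 0.35). Neither differed beyond counting error. None of the 5 CHLA9 members at 1 CPM or more was past 1.5-fold in either direction, where 1.99% of genes between 1 and 10 CPM were higher and 3.32% lower in cells with a FLI1 UMI. In TC71 only PHLDA1 was, lower by a log2 ratio of -0.88 (-2.59 to 0.48), where 13.1% of such genes were lower and 10.1% higher. With FLI1 read at 20000 UMIs per cell its log2 ratio was 0.03. IGFBP3 in CHLA9 gave 16 UMIs in the cells with FLI1 and 14 in those without, a log2 ratio of 1.28 (0.15 to 2.43). By cells the difference was within counting error, with IGFBP3 in 0.693% of cells with a FLI1 UMI (0.333 to 1.27) and in 0.424% of cells without (0.226 to 0.723). FLI1 was at a low level in both lines, so most cells without a FLI1 UMI at this depth cannot be called free of it.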

How the data were processed

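Cells of CHLA9 and TC71 were profiled with 1 library each. Per the submitters' processing notes, Cell Ranger 3.1.0 and hg38 were used. The authors deposited raw UMI counts per gene and barcode, with no normalization. Depth was 174975302 kept UMIs in CHLA9 and 58355173 in TC71, so that 3 counts equal 0.0171 and 0.0514 CPM.

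The members and gene lists were chosen with earlier results of these data known. Named were all members, the 3 genes with the highest rho to each member detected in 5% of cells, and from each list up to 3 genes with the highest CPM and up to 3 with the largest ratio. SOD2 was left out because its symbol stands for more than one identifier, and the other lines and xenografts were not analysed here. A lineage gene and a gene ranked by rho are not reported here.

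Counts were summed per library, and fold limits of 2 between lines and 1.5 between cells were applied, with no test between lines. Phases were scored with Seurat 5.3.0 in R 4.3.3 on genes in at least 10 cells. Thinning used numpy 2.4.6 with a seed of 1, intervals scipy 1.17.1 and tables pandas 2.3.3, and the figures matplotlib 3.10.9. The ratio and co-variation steps were tested on simulated data. Doublets were not removed, since no caller was run. Cells were called mixed when over 30% of their UMIs from genes at 50 CPM or more in one line, and 20-fold above the other, came from the other line's genes. Coordinates are from GENCODE 44. On the opposite strand members overlap other genes there, such as LOX with SRFBP1, PHLDA1 with PHLDA1-AS1 and CTGF with LINC01013. On the same strand THBS1 overlaps THBS1-IT1, and FOXO1 overlaps a gene that has no symbol. Whether the counting used strand is not given in the sources used here. Alternatives covered filters, scaling, depth of thinning, seeds and phase genes.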

Additional observations from a re-analysis of the deposited data

Results flagged for a closer look

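With all kept cells, CYR61 and LOX were the members whose log2 ratio between cell cycle phases lay beyond counting error in CHLA9 and had the opposite sign in TC71. For G1 over G2M, CYR61 was 0.64 in CHLA9 (0.15 to 1.11) and -0.82 in TC71 (-1.95 to 0.14), and for S over G2M it was 0.98 (0.61 to 1.36) and -0.0350 (-0.53 to 0.46). Without the 2 mixed cells the CYR61 value for G1 over G2M in CHLA9 fell to 0.44, and whether that lies beyond counting error is not given. LOX was -0.45 (-0.71 to -0.20) in CHLA9 and 0.0047 (-1.05 to 0.94) in TC71. The differences between the lines were not tested, all 3 TC71 intervals include 0, and LOX in TC71 was -0.20 with phases scored from all genes and -0.27 on thinned cells, the same sign as in CHLA9.

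The 5869 TC71 barcodes with fewer than 5000 UMIs, which entered only the alternative with no filter on barcodes, held more than 3 UMIs of 7 members. Their levels were 4.51 CPM for TGFBR2, 3.94 for LOX (2.75 to 5.48), 6.19 for FOXO1, 1.58 for PHLDA1, 1.24 for SPRY1, 1.91 for CYR61 and 0.788 for CTGF. LOX exceeded its 1.85 CPM in kept cells by a log2 ratio of 1.09 (0.50 to 1.65), and the other 6 did not differ beyond counting error. A further 870 TC71 barcodes were left out for few genes or a high mitochondrial percent. There LOX was at 5.26 CPM (3.81 to 7.09) and TGFBR2 at 8.68 CPM (6.78 to 10.95), both above their intervals in kept cells. The intervals of the other members overlapped those of the kept cells.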

How the results depend on the processing

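Of 148 log2 values under alternatives, 13 changed sign. None of the 13 lay beyond counting error in the main setting, and 1 was a bound, THBS1 between the lines, which went from -0.42 to 0.05 with at most 10% mitochondrial UMIs. The others included the summed members between the lines, from -0.04 to 0.04 when scaled without mitochondrial and ribosomal protein genes, and in TC71 PHLDA1 for G1 over G2M, from -0.46 to 0.76 on thinned cells, and CTGF, from 0.62 to -0.57 with phases from all genes. Of the summary values, 69 stayed within their limits and 8 moved, and of the values of single members 238 stayed and 33 moved. Past 4-fold instead of 2-fold, 1 member was higher in CHLA9 (IGFBP3) instead of 2, and 2 were higher in TC71 (SPRY1 and CTGF). The share of cells with any member followed the depth of thinning, at 10.0% in both lines with 5000 UMIs per cell, and 32.9% in CHLA9 and 33.5% in TC71 with 20000. Chosen after seeing the data were the alternatives of leaving out the 2 mixed cells, a limit of 1% on detection, phases on thinned cells and the variance of UMIs over cells. The log2 ratio of the summed members for G1 over G2M in CHLA9 was -0.79 on thinned cells. The variance over the mean of IGFBP3 UMIs in thinned CHLA9 cells was 1.86 with the main seed, 1.19 with a seed of 2 and 2.12 at 20000 UMIs, so it depended on which UMIs of a few cells were drawn. With no filter on barcodes, LOX moved to a log2 ratio of -1.25 from -1.68. No paired analysis was possible because there are no replicates to pair: a single library stands for each line. Counting limits the members at 0 to 0.0171 CPM in CHLA9 and 0.0514 CPM in TC71.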

Other observations

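Some members varied with the UMIs per cell. In TC71, SPRY1 was at 2.0 CPM in the tertile of kept cells with the fewest UMIs, 0.780 CPM in the middle tertile and 0.563 CPM in the one with the most, a log2 ratio of -1.83 (-2.86 to -0.85) for most over fewest. LOX was at 2.32, 2.39 and 1.24 CPM in the same tertiles of TC71. FOXO1 went the other way in both lines, from 7.42 to 10.7 CPM in CHLA9 and from 6.89 to 9.0 CPM in TC71 between the outer tertiles. In CHLA9, IGFBP3 was at 0.661, 0.836 and 0.349 CPM.

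Of immediate early genes other than members, 2 of 14 were past 2-fold higher in TC71 and 3 in CHLA9. ATF3, a stress-induced factor, was at 5.74 CPM in TC71 and 0.686 in CHLA9, while FOS (1.66 CPM against 14 UMIs) and KLF6 (105 against 31.2 CPM) were higher in CHLA9. The tertiles and their values were chosen after seeing the data.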
